A study of Mus musculus with 16 samples.

Results

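The genes that receive, carry and convert adenosine were examined in RAW264.7 cells, a macrophage-like mouse cell line, after cordycepin and lipopolysaccharide (LPS). The set held 10 genes chosen by name: the adenosine receptors Adora2a, Adora2b and Adora3, the nucleoside transporters Slc29a1 and Slc29a2, the surface enzymes Entpd1 and Nt5e, and the intracellular enzymes Adk, Ada and Ampd3. Every gene probe whose gene name on the array matched one of these was taken, which gave 14 of 55681 probes. The match by name used no measured value, but the genes were chosen with earlier results of these data known.

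Gene expression was measured with Agilent 1-colour mouse arrays in 4 groups of 4 cultures, 16 arrays in all. All cultures had been moved to low serum a day earlier. The DMSO group received the vehicle alone for 120 min, and the cordycepin group received cordycepin at 20 μM in DMSO for the same time. In the LPS+DMSO and LPS+cordycepin groups, LPS at 1 μg/ml was present for the last 60 min. The 4 cultures of a replicate number shared a day and a plate. Replicates 1 and 2 of every group were on slide 1, and replicates 3 and 4 were on slide 2. The line is a tumour-derived substitute for macrophages, and no primary cells are described here.

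Adenosine arises outside cells when surface enzymes strip phosphates from ATP and AMP. It acts on receptors coupled to G proteins, is carried across the membrane by equilibrative transporters, and inside the cell is either phosphorylated back to AMP or deaminated to inosine. In macrophages the receptor that Adora2a encodes is known for restraining inflammatory responses. Cordycepin is 3′-deoxyadenosine, an adenosine analogue that inhibits polyadenylation, and the kinase and deaminase that handle adenosine also act on it.

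Between 37.1% and 51.2% of gene spots per array were well above background by the scanner's test, with 37.1% to 43.9% on slide 1 and 45.8% to 51.2% on slide 2. No spot was saturated. All 8 macrophage markers, among them Cd68, Csf1r and Cd14, were above background on all 16 arrays. No marker of fibroblasts (3 examined) or epithelium (3 examined) reached that level on every array. Of 4 T cell markers Cd3e and Cd4 were above background on all 16 arrays and Cd3g was on none, and of the B cell markers Ms4a1 was on none and Cd79a was on 12. The part of these markers in the results was not tested.

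The test took in a probe if 1 or more groups had it well above background on all of their 4 arrays. This held for 8 of the 14 probes, which cover 7 of the 10 genes. Values are log2 signals, scaled so that the 75th percentile of well-detected probes was equal on all arrays. They can be compared between groups for a probe but not between probes. Each probe is a strand of 60 bases.

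Stretches of 30 bases are shown from the probes that carry the results. They are the Slc29a2 probe, which is the probe with a called change, and the Adora2a probe, whose signal was highest in LPS+cordycepin. The Adora3 probe, whose signals were highest in the groups with cordycepin, and a further probe that the array also names Adora3 are shown too. Sequences are those of the array files, 5′ to 3′, and positions are on the mm9 build. Capitals mark AATAAA, the hexamer best known as a polyadenylation signal.
Slc29a2 probe A_51_P304125 (chr19:5031775-5031834), bases 1 to 30: ggattcgactgtctatggaagagtaaggcg
Adora2a probe A_55_P2109382 (chr10:74797461-74797520), bases 30 to 59: cccctgagataaAATAAAatgagccacact
Adora3 probe A_55_P1972605 (chr3:105711212-105711271), bases 31 to 60: gtgcatttgagcaAATAAAagatgatgccc
Second Adora3 probe A_51_P382789 (chr3:105721698-105722939), bases 1 to 30: cagagggctcccgaatgtccattctgatca
The hexamer AATAAA or its variant ATTAAA, read on the strand as listed, was in 4 of the 14 probes and in 13.7% of all 55681 probes. On the opposite strand 2 of the 14 held either hexamer, as did 6.1% of all probes. The GC content of the 14 probes ranged from 35.0% to 51.7%, with a median of 39.2%, against 43.3% over all probes. The exon or untranslated region under each probe was not worked out here.

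LPS lowered the transporter gene Slc29a2 with and without cordycepin, though each of these calls was lost under some alternatives. The signal of the Adora3 probe was higher with cordycepin in all 4 replicate pairs, with and without LPS, although in cells without cordycepin it was not above background. Adora2a was above background on every array only in LPS+cordycepin, and no change of it was called. No change was called for Adora2b, Slc29a1, Adk, Ada or Ampd3, and Nt5e and Entpd1 were not above background on any array.

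With an adjusted p under 0.05 (limma, adjusted over all 21597 probes tested) as the threshold, 1 of the 7 tested genes changed in LPS+DMSO against DMSO, Slc29a2, where 14.4% of all probes tested were called. In LPS+cordycepin against cordycepin 1 of 7 changed, again Slc29a2, against 7.88% of all probes. No tested gene of the set was called in cordycepin against DMSO, where 16.8% of all probes were, nor in LPS+cordycepin against LPS+DMSO, where 20.2% were. By limma, 2 of the 7 had an unadjusted p under 0.05 in cordycepin against DMSO and 2 in LPS+cordycepin against LPS+DMSO, and a univariate test of the kind in the study's methods gave 0 and 3. The shares of all probes for these unadjusted counts are not given here. Unadjusted, that univariate test passed 4985 of 21597 probes in LPS+DMSO against DMSO. None of the 7 genes was called in the interaction, the difference between the LPS changes of cells with and without cordycepin, in which 0.519% of all probes were called. There 0 of 7 had an unadjusted p under 0.05. With 7 genes, a share of 1 in 7 lies near the background of the LPS comparison. The median log2 change of the 7 genes was 0.05 in LPS+DMSO against DMSO, where that of all probes was -0.04, and 0.15 in cordycepin against DMSO, where that of all probes was 0.04.

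**Figure D1:**
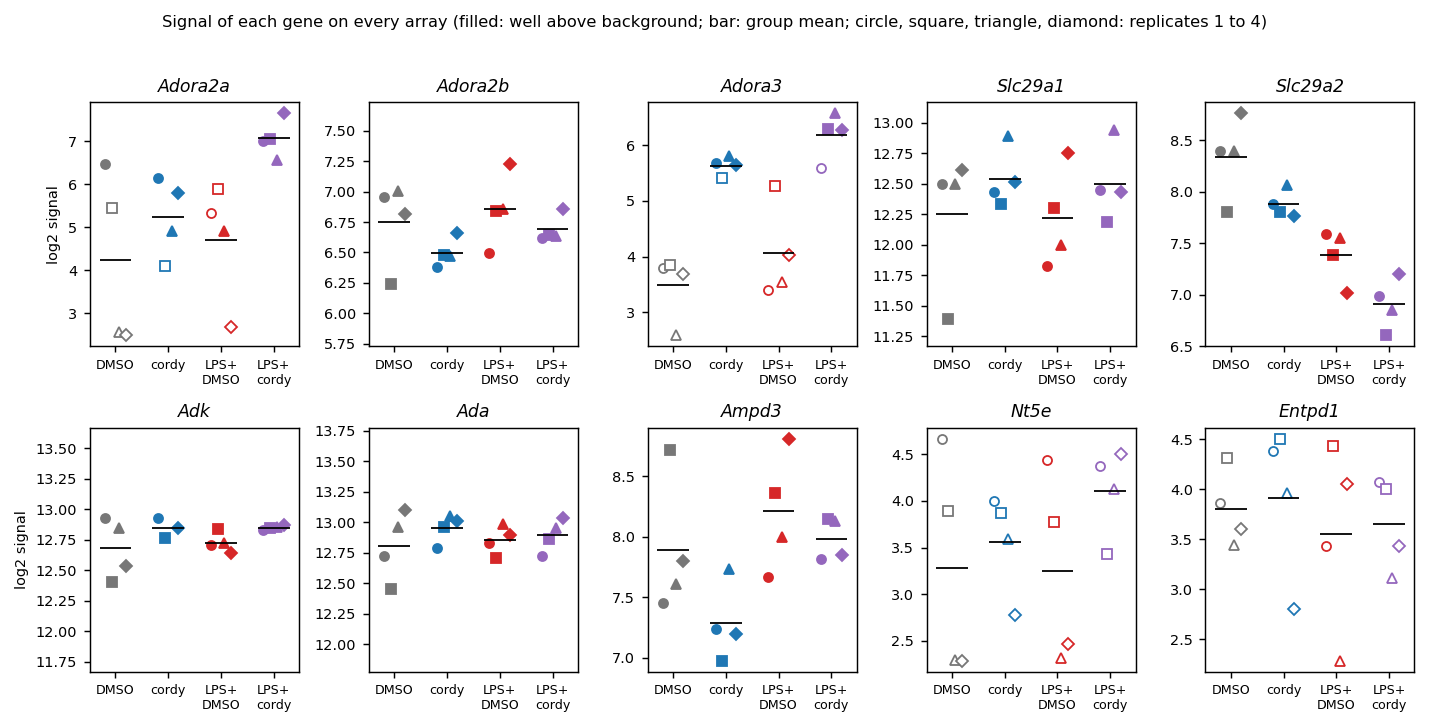
Log2 signal of 1 probe for each of the 10 genes on every array, by group (cordy is cordycepin). Filled symbols are arrays on which the probe was well above background, open symbols are arrays on which it was not, bars are group means, and the symbol shape gives the replicate. Slc29a2 steps down from DMSO to LPS+cordycepin, the cordycepin groups of Adora3 lie above the groups without it, and all symbols of Nt5e and Entpd1 are open.

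Adora2a encodes a receptor with high affinity for adenosine that raises cyclic AMP. Its log2 signal was 6.47, 5.44, 2.56 and 2.49 in the 4 DMSO cultures (replicates 1 to 4) and 6.13, 4.10, 4.91 and 5.79 in cordycepin. It was 5.34, 5.89, 4.92 and 2.67 in LPS+DMSO and 7.01, 7.04, 6.55 and 7.64 in LPS+cordycepin. All 4 LPS+cordycepin cultures were above every culture of the other groups. The scanner placed the probe well above background on 4 of 4 arrays in LPS+cordycepin, 3 in cordycepin, and 1 each in DMSO and LPS+DMSO, so it entered the test only through LPS+cordycepin. Its differences and their adjusted p are therefore given as a description.

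Against LPS+DMSO, Adora2a in LPS+cordycepin was higher by 2.36 on the log2 scale (SE 0.85, n = 4 per group), and in all 4 replicate pairs, with 3 of the 4 LPS+DMSO arrays not above background. The adjusted p was 0.0664 (limma), which did not pass, and without the filter on dim probes it was 0.193 (limma). When the replicate number entered as a block, the adjusted p was 0.0463 (22.6% of all probes called; 0.137 with that block and no filter), and with the slide as a block it was 0.0315 (23% of all probes called; limma). Within slide 1 the difference was 1.41 (limma adjusted p 0.282) and within slide 2 it was 3.30 (limma adjusted p 0.0142). It was 1.11 with another background correction (normexp) and 1.31 in the authors' value table, with adjusted p of 0.0550 and 0.0562 (limma).

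The other comparisons of Adora2a did not pass. In cordycepin against DMSO the difference was 0.99 (SE 0.85, limma adjusted p 0.504). Within slide 1 it was -0.84 and within slide 2 it was 2.82 (limma adjusted p 0.521 and 0.0365), so the slides differed in direction. The 2 DMSO cultures of slide 1 read 6.47 and 5.44, and those of slide 2 read 2.56 and 2.49. In LPS+cordycepin against cordycepin the difference was 1.83 (SE 0.85, limma adjusted p 0.272), without overlap of the groups. The interaction was 1.36 (SE 1.20, limma adjusted p 0.929).

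Adora2b encodes a related receptor that also raises cyclic AMP but needs higher concentrations of adenosine. Its main probe (chr11:62079834-62079893) was above background on all 16 arrays, with signals from 6.24 to 7.22. Without LPS the group means were 6.75 ± 0.35 in DMSO and 6.50 ± 0.12 in cordycepin, and with LPS they were 6.85 ± 0.30 (LPS+DMSO) and 6.69 ± 0.11 (LPS+cordycepin; SD, n = 4). The groups overlapped in every comparison. The changes ran from -0.25 to 0.19, their 95% intervals lay between -0.61 and 0.55, and the lowest adjusted p was 0.355 (limma).

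A further Adora2b probe, 1080 bases away (chr11:62078754-62078813), was dimmer. It was above background on 8 of 16 arrays, the 8 of slide 2, and was not tested. Its signals ran from 4.85 to 6.15 and its groups overlapped in every comparison.

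Adora3 encodes the A3 receptor, which lowers cyclic AMP. The probe shown above under its name read 3.80, 3.86, 2.59 and 3.69 in DMSO and 5.68, 5.42, 5.80 and 5.65 in cordycepin. With LPS it read 3.40, 5.27, 3.54 and 4.03 in LPS+DMSO and 5.59, 6.29, 6.57 and 6.27 in LPS+cordycepin. The groups with and without cordycepin did not overlap, in cells with LPS or in cells without it. The probe was well above background on 3 of 4 arrays in each cordycepin group and on 0 of 4 in DMSO and in LPS+DMSO.

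Adora3 therefore had no group with all 4 arrays above background, and it was outside the test. The difference of means was 2.15 in cordycepin against DMSO and 2.12 in LPS+cordycepin against LPS+DMSO, and 4 of 4 pairs were higher in each. The cordycepin signal exceeded the lowest signal above background on the DMSO array of its replicate in 2 of 4 pairs, and LPS+cordycepin exceeded that of its LPS+DMSO array in 3 of 4, so no fold is given. With each array without cordycepin set to the higher of its own signal and its lowest signal above background, the differences were 0.32 and 0.97. In a fit of all 55681 probes without the filter, the adjusted p was 0.00321 and 0.00255 (limma), where 4.75% and 6.43% of probes were called. These p rest on DMSO and LPS+DMSO arrays that were not above background, and are a description. With normexp background correction the differences of means were 0.51 and 0.84. Within slide 1 they were 1.72 and 1.60, and within slide 2 they were 2.58 and 2.64. The LPS comparisons differed by 0.57 without cordycepin and by 0.54 with it, and there the groups overlapped.

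The identity of the Adora3 signal is uncertain. The Adora3 probe also lists a transcript that RefSeq now places under Tmigd3, a gene whose span in that annotation (GRCm38.p6) takes in Adora3, so transcripts of the pair cannot be told apart. The second probe with the Adora3 name lies 10486 bases away and belongs by its accession to Tmigd3. It was above background on 0 of 16 arrays, its highest signal was 4.14, and all groups overlapped.

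Slc29a1 and Slc29a2 encode the equilibrative nucleoside transporters ENT1 and ENT2, which let adenosine and its analogues pass the plasma membrane in either direction. The Slc29a1 probe (chr17:45722171-45722230) read 12.50, 11.39, 12.50 and 12.61 in DMSO and between 12.34 and 12.89 in cordycepin. It read 11.82 to 12.75 in LPS+DMSO and 12.19 to 12.94 in LPS+cordycepin. The groups overlapped in every comparison. Changes ran from -0.04 to 0.29, with 95% intervals between -0.60 and 0.86 and a lowest adjusted p of 0.529 (limma).

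Slc29a2 read 8.40, 7.80, 8.39 and 8.76 in DMSO and 7.59, 7.38, 7.54 and 7.01 in LPS+DMSO. It read 7.88, 7.80, 8.06 and 7.76 in cordycepin and 6.98, 6.61, 6.85 and 7.20 in LPS+cordycepin. In both states of cordycepin, every LPS culture lay below every culture without LPS. The order of the means was DMSO (8.34 ± 0.40), cordycepin (7.88 ± 0.13), LPS+DMSO (7.38 ± 0.26) and LPS+cordycepin (6.91 ± 0.25; SD, n = 4). Neighbours in this order overlapped at both cordycepin steps and did not overlap between cordycepin and LPS+DMSO.

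LPS lowered Slc29a2 1.94-fold in DMSO (log2 change -0.95, SE 0.19, adjusted p 0.00218, limma) and 1.95-fold in cordycepin (log2 change -0.97, SE 0.19, adjusted p 0.00326, limma). It was lower with LPS in 4 of 4 pairs in each. In bulk RNA of this kind, a change per cell and a change in how many cells express the gene cannot be told apart. The interaction was -0.01 (95% interval -0.57 to 0.55, limma adjusted p 0.997). Within slide 1 the interaction was -0.44 and within slide 2 it was 0.41 (limma adjusted p 0.9975 and 0.775), so the slides differed in direction. When arrays were scaled to spiked-in control RNA, the adjusted p of the LPS changes was 0.184 and 0.0650 (log2 changes -1.05 and -1.28, limma), and the calls were lost. Within slide 1 the LPS change in DMSO was -0.61 (limma adjusted p 0.261), and within slide 2 it was -1.30 (limma adjusted p 0.0119). The LPS change in cordycepin was -1.05 within slide 1, -0.88 within slide 2 and -0.52 with normexp correction (limma adjusted p 0.0940, 0.0753 and 0.0610), and without replicate 3 it was -0.88 (limma adjusted p 0.0775), so its call was lost in each.

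Cordycepin went with a smaller difference in Slc29a2 that did not pass the test. The log2 change was -0.46 (SE 0.19, adjusted p 0.114, limma) in cordycepin against DMSO and -0.47 (SE 0.19, adjusted p 0.0970, limma) in LPS+cordycepin against LPS+DMSO, each lower in 3 of 4 pairs. Averaged over cells with and without LPS, a contrast added after seeing the data, it was -0.47 (SE 0.13, adjusted p 0.0142, limma). This contrast holds all 8 cultures of each kind. None of the other tested genes passed in it (lowest adjusted p 0.0503, limma), and its share of all probes called is not given here. The authors' value table gave -0.50 and -0.51, with adjusted p of 0.0474 and 0.0375 (limma). With normexp correction the values were -0.42 and -0.16 (limma adjusted p 0.0940 and 0.608). In cordycepin against DMSO the change was -0.25 within slide 1 and -0.67 within slide 2 (limma adjusted p 0.604 and 0.131), and in LPS+cordycepin against LPS+DMSO it was -0.69 and -0.25 (limma adjusted p 0.144 and 0.550).

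**Figure D2:**
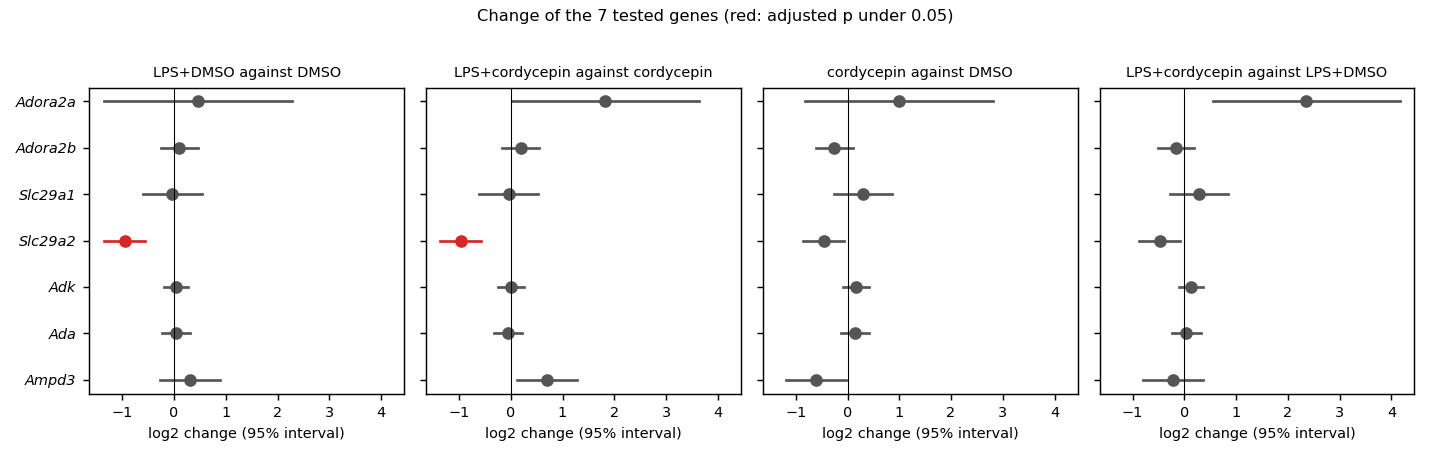
Log2 change of the 7 tested genes in 4 comparisons, with 95% intervals from the limma fit of all 16 arrays (4 per group). Red marks an adjusted p under 0.05, which Slc29a2 reached in both LPS comparisons (-0.95 and -0.97). The intervals of Adora2a are the widest, and those of Adk and Ada lie within 0.42 of 0.

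Adk encodes adenosine kinase, which phosphorylates adenosine and is the enzyme that turns cordycepin into its monophosphate. Its main probe (chr14:22267635-22267694) read 12.93, 12.41, 12.84 and 12.53 in DMSO and 12.93, 12.76 and 12.85 in cordycepin, where replicate 3 was dropped as an outlier spot. It read 12.70, 12.83, 12.72 and 12.64 in LPS+DMSO and 12.82 to 12.87 in LPS+cordycepin. The difference of LPS+cordycepin from LPS+DMSO was 0.12, higher in 4 of 4 pairs but with the groups overlapping (SE 0.11, limma adjusted p 0.529). Over the 4 comparisons the 95% intervals lay between -0.25 and 0.42. A second Adk probe (chr14:22059713-22059772), 207922 bases away and listed with another transcript, read 9.97 to 10.99 and changed by 0.27 in cordycepin against DMSO (SE 0.18, limma adjusted p 0.360).

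Ada encodes adenosine deaminase, which converts adenosine to inosine and cordycepin to its inosine counterpart. Its probe (chr2:163552581-163552640) was above background on all 16 arrays, with means of 12.81 ± 0.28 (DMSO) and 12.95 ± 0.11 (cordycepin) without LPS. With LPS the means were 12.86 ± 0.12 (LPS+DMSO) and 12.90 ± 0.13 (LPS+cordycepin; SD, n = 4). The groups overlapped in every comparison. The changes ran from -0.06 to 0.14, with 95% intervals between -0.33 and 0.42 and a lowest adjusted p of 0.517 (limma). A change of 2-fold, which is 1.00 on this scale, lay outside the intervals of Adk and Ada in all 4 comparisons.

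Ampd3 encodes an AMP deaminase, which takes AMP to IMP. Its main probe (chr7:117954980-117955039) read 7.45, 8.72, 7.61 and 7.80 in DMSO and 7.24, 6.98, 7.73 and 7.20 in cordycepin. It read 7.67 to 8.81 in LPS+DMSO and 7.82, 8.14, 8.13 and 7.85 in LPS+cordycepin. Cordycepin cultures were the lowest group, and all 4 lay below all 4 of LPS+cordycepin. The change in LPS+cordycepin against cordycepin was 0.70 (SE 0.27, adjusted p 0.161, limma) and that in cordycepin against DMSO was -0.61 (SE 0.27, adjusted p 0.153, limma). Neither passed. The latter was -0.33 without DMSO replicate 2, which read 8.72, and -0.23 without replicate 2 of every group (adjusted p 0.393 and 0.660, limma). A second Ampd3 probe (chr7:117938163-117938222), 16817 bases away, was above background on 0 of 16 arrays.

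Entpd1 encodes CD39, which takes ATP and ADP to AMP at the cell surface, and Nt5e encodes CD73, which takes AMP to adenosine. The Entpd1 probe (chr19:40816008-40816067) was well above background on 0 of 16 arrays, with signals from 2.29 to 4.51. The Nt5e probe (chr9:88266616-88266675) was on 0 of 16 as well, with signals from 2.29 to 4.67. Their groups overlapped in every comparison. The arrays give no fold for these genes, since no group was above background.

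The members were set beside 85 other genes of purine handling in 5 lists, of which 58 were tested. In LPS+DMSO against DMSO 3 rose and 6 fell, which is 15.5% of the 58, and of all probes 5.03% rose and 9.4% fell. In cordycepin against DMSO 6 rose and 3 fell, also 15.5%, and of all probes 9.71% rose and 7.05% fell. In LPS+cordycepin against LPS+DMSO 2 rose and 3 fell, 8.62%, where 12% of all probes rose and 8.19% fell. In LPS+cordycepin against cordycepin 2 rose and 0 fell, 3.45%, where 3.38% of all probes rose and 4.5% fell. With the replicate block 6 rose and 5 fell in LPS+DMSO against DMSO, where 3776 of all 21597 probes were called (limma). With that block 4 rose and 3 fell in LPS+cordycepin against LPS+DMSO, where 22.6% of all probes were called (limma). None of the 58 was called in the interaction. The medians of the 58 log2 changes were -0.04, 0.10, 0.11 and -0.06 in that order, with medians over all probes of -0.04, 0.04, 0.03 and -0.04.

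Only Ampd1 and P2ry2 of these genes passed the threshold with a change of at least 2-fold. Ampd1, the AMP deaminase known from skeletal muscle and a relative of Ampd3, read 3.89, 3.91, 5.40 and 2.35 in DMSO and 8.42, 8.38, 8.35 and 8.48 in cordycepin. It read 5.98, 5.38, 5.21 and 5.24 in LPS+DMSO and 9.68, 10.03, 10.06 and 10.23 in LPS+cordycepin. Every culture with cordycepin was above every culture without it. It was above background on all arrays of both cordycepin groups, on 1 of 4 DMSO arrays and on 3 of 4 in LPS+DMSO, so it entered the test only through the cordycepin groups. With each array without cordycepin set to the higher of its own Ampd1 signal and its lowest signal above background, Ampd1 was at least 7.31-fold higher in cordycepin than in DMSO and at least 20.8-fold higher in LPS+cordycepin than in LPS+DMSO. As a description, the fitted log2 changes were 4.52 and 4.54 (adjusted p 1.55e-06 and 1.07e-06, limma). The counts above of genes that rose in these comparisons include Ampd1.

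LPS raised Ampd1 in cells with cordycepin by 1.59 on the log2 scale (4 of 4 pairs, adjusted p 0.0301, limma). The 3 genes counted above as higher with LPS in DMSO include Ampd1, for which no size is given there, since only 1 of the 4 DMSO arrays was above background. P2ry2, a surface receptor for ATP and UTP, was above background on all 16 arrays. It fell 2.06-fold in LPS+cordycepin against LPS+DMSO (log2 change -1.04, SE 0.11, adjusted p 5.45e-06, limma) and 1.93-fold in cordycepin against DMSO (log2 change -0.95, SE 0.11, adjusted p 1.86e-05, limma). Its signals were 10.07 to 10.37 in DMSO and 9.20 to 9.36 in cordycepin, and with LPS they were 10.38 to 10.76 in LPS+DMSO and 9.35 to 9.79 in LPS+cordycepin.

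**Figure D3:**
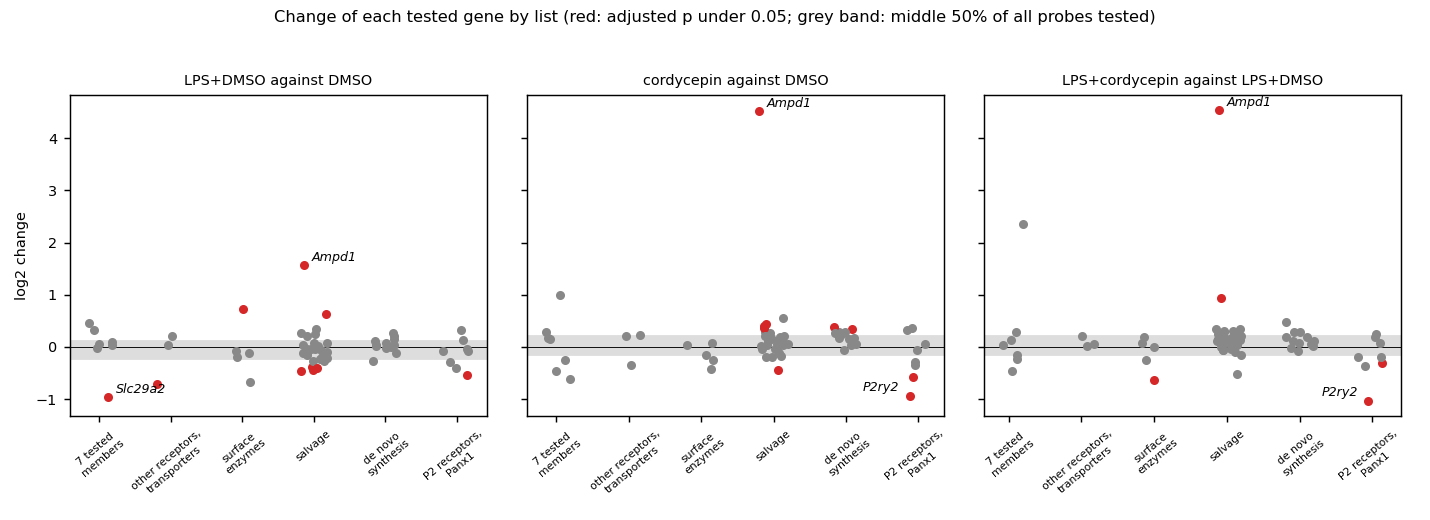
Log2 change of the 7 tested members and of the 58 tested genes of the 5 purine lists in 3 comparisons, 1 point per gene. Red points have an adjusted p under 0.05, and the grey band holds the middle 50% of all 21597 probes tested. Ampd1 stands far above the other points in the comparisons with cordycepin (4.52 and 4.54, fitted partly on arrays not above background), and Adora2a is the highest grey point in LPS+cordycepin against LPS+DMSO (2.36).

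The list of other adenosine receptors and transporters had 6 genes, of which 3 were tested. Slc29a3, the transporter of this family found on lysosomes, fell in LPS+DMSO against DMSO by 0.71 (adjusted p 0.0188, limma). It changed by -0.16 in LPS+cordycepin against cordycepin (adjusted p 0.768, limma), and the interaction was 0.54 (adjusted p 0.701, limma). Slc29a3 and the genes named in the rest of this paragraph were chosen after their values were seen. Of 15 other surface enzymes 5 were tested, and Enpp4 rose with LPS by 0.72 (adjusted p 0.0164, limma) and fell by 0.63 in LPS+cordycepin against LPS+DMSO (adjusted p 0.0253, limma). Of 36 salvage genes 30 were tested, and 4 rose and 1 fell with cordycepin alone, 16.7%, near the 16.8% of all probes. Ak1, an adenylate kinase, rose by 0.93 in LPS+cordycepin against LPS+DMSO (adjusted p 1.07e-05, limma) and by 0.39 in cordycepin against DMSO (adjusted p 0.0212, limma). Mat2a, which makes S-adenosylmethionine, rose with LPS by 0.64 in DMSO (adjusted p 3.22e-05, limma) and by 0.52 in cordycepin (adjusted p 0.000391, limma). All 12 genes of purine synthesis de novo were tested, and Gart (0.39) and Impdh2 (0.34) rose with cordycepin alone (adjusted p 0.0315 and 0.0364, limma). That share was 16.7% as well. Among 16 P2 receptor and release genes 8 were tested, and Panx1, a channel that releases ATP, fell by 0.58 with cordycepin alone (adjusted p 0.00485, limma) and by 0.54 with LPS in DMSO (adjusted p 0.0105, limma).

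For each tested member, the genes with the most similar signal over the 16 arrays were sought among 11157 others. The arrays share days, slides and treatments, so the correlations are descriptions. Slc29a2 was most like Ormdl3 (Pearson r 0.954) and Hgh1 (0.950). Slc29a1 was most like Fbxl6 (0.955) and Paics (0.952), Ada like Igf1 (0.942) and S100a8 (0.906), Adk like Il1rl1 (0.923) and Acat1 (0.914), and Ampd3 like Atp7a (0.912) and Ptpn12 (0.905). For Adora2a and Adora2b no gene reached 0.9.

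The probes of the preceding genes on the same strand were read for Adora2a, Ampd1 and Adora3, a choice made after the values were seen. The Specc1l probe, 23754 bases before that of Adora2a, changed by -0.36 in LPS+cordycepin against LPS+DMSO (adjusted p 0.0529, limma). The Nras probe, 31327 bases before that of Ampd1, changed by 0.21 in cordycepin against DMSO and by 0.11 in LPS+cordycepin against LPS+DMSO (adjusted p 0.385 and 0.717, limma). The Gm5547 probe, 91023 bases before that of Adora3, was above background on 9 of 16 arrays and was not tested. Its differences were 0.50 and 0.85 in the same comparisons.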

How the data were processed

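Total RNA of 16 RAW264.7 cultures was labelled with Cy3 from poly(A) tails (Agilent Low Input Quick Amp kit, per the labels) and hybridised to Agilent arrays. The part of poly(A) tails in the differences with cordycepin was not tested. The labels name a Nucleospin kit for RNA and the methods name others. The deposited scanner files hold, for each spot, the processed intensity that the authors obtained with Agilent Feature Extraction (version 10.10.1.1 per the submitters' processing notes) after subtraction of background, without normalization between arrays. The authors' deposited value table holds log2 values of 23730 probes, normalized by a method that the sources used here do not give. On each array it correlated with the scanner values at 0.995 to 0.998 and served as an alternative. Gene names are those of the array files, accessions were checked against RefSeq (GRCm38.p6), and probe positions are the files' own (mm9).

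Processed intensities were log2-transformed, spots marked as outliers were left out (127 probe values missing over 55681 probes), spots of a probe were averaged, and arrays were scaled to the 75th percentile of the 18063 probes above background on all arrays. The 21597 probes that passed this mark on every array of 1 or more groups were tested with limma 3.58.1 (R 4.3.3, data.table version 1.17.8) on the 4 group means, with Benjamini-Hochberg adjustment, and the script was tested on simulated data. Files were read and plots drawn with Python 3.11.15, numpy 2.4.6, pandas 2.3.3 and matplotlib 3.10.9. The brightest tested probe stood for a gene. The number of arrays limits the precision.

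Groups came from the labels. The series' design text gives each replicate number its own collection day, so the numbers pair the samples. The mean correlation of residuals was 0.21 for the 24 pairs of arrays of a day (-0.14 to 0.52, and over 0.1 for 18), 0.20 for pairs of another day but the same slide, and -0.20 across slides. No block was used in the values reported unless stated.

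All 10 members are named. Other pathway genes are named if they had an adjusted p under 0.05 and at least a 2-fold change in any comparison, and similar genes if among the best 2 at r of 0.9 or more. Genes outside this rule are marked in the text as chosen after their values were seen. The members, lists and tests were chosen with earlier results of these data known. Alternatives were other scalings and background corrections, filters, probe rules, blocks, fits and thresholds, and leaving out replicates and arrays.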

Additional observations from a re-analysis of the deposited data

Results flagged for a closer look

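In 35 groups of 4 arrays, 3 (8.57%) had an array far from the other 3 by Dixon's 95% limit, where chance gives about 1 in 20. Adora2b in LPS+cordycepin replicate 4 read 6.86, with 6.65 the nearest. Slc29a1 in DMSO replicate 2 read 11.39, with 12.50 the nearest. Adora3 in DMSO replicate 3 read 2.59, with 3.69 the nearest, and all 4 arrays of that group were below background.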

How the results depend on the processing

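The alternatives reversed no called change. Of 204 values for the number of genes called, 172 equalled the value reported, which was 0 or 1. Many of the 204 came from fits with an array or replicate left out, which share most of their arrays with the fit reported. Scaling to 7 spiked-in control probes moved the median change of all probes to -0.13 in LPS+DMSO against DMSO, 0.10 in cordycepin against DMSO, -0.12 in LPS+cordycepin against LPS+DMSO and -0.36 in LPS+cordycepin against cordycepin. In LPS+DMSO against DMSO the count of 1 (Slc29a2) was 0 with the 2-fold minimum, with spiked-in scaling, within slide 1 and with the methods' univariate test after adjustment, and 1 whichever array or replicate was left out. In cordycepin against DMSO the count of 0 was 1 with quantile normalization, the authors' value table, and both cordycepin comparisons averaged (Slc29a2 in each), 1 within slide 2 (Adora2a), and 0 to 1 with an array or replicate left out (Slc29a2, without replicate 2 or DMSO replicate 2). In LPS+cordycepin against LPS+DMSO the count of 0 was 1 with quantile normalization, the 75th percentile over all probes, the authors' value table and the averaged comparisons (Slc29a2), and 1 with spiked-in scaling, the replicate block, the slide block, within slide 2 and with only the groups compared (Adora2a). It was 3 with the univariate test unadjusted (Adk, Adora2a and Slc29a2), and 0 to 1 with an array or replicate left out (Slc29a2 without replicate 4, DMSO replicate 2 or LPS+DMSO replicate 4, and Adora2a without DMSO replicate 1). In LPS+cordycepin against cordycepin the count of 1 was 0 with the 2-fold minimum, spiked-in scaling, normexp correction, within slide 1 and within slide 2, and 0 to 1 with an array or replicate left out (0 without replicate 3, where Slc29a2 changed by -0.88, limma adjusted p 0.0775). It was 3 with only the groups compared and with the univariate test unadjusted (Adora2a, Ampd3 and Slc29a2). The count in the interaction was 0 under every alternative run, and the univariate test and the fit of only the groups compared were not run for it. Pairing by the replicate block gave a count of 1 in LPS+cordycepin against LPS+DMSO and changed no other call of a member. The causes of these differences were not tested. The fits within a slide or with arrays left out hold fewer samples. Adora2a entered the test only through LPS+cordycepin, so each count above that includes it is a description. The counts in this paragraph, adjusted or not, stand without the share of all probes called under the same setting. They are not read as results about the set. Signals near background limit Adora2a and Adora3, and nothing was measured for Nt5e and Entpd1 beyond their lack of signal above background.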
